A study of Rattus norvegicus with 6 samples.

Results

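Nuclei carrying the transcripts of the brain's blood vessels were picked out of the nucleus accumbens shell of adult rats by their UMI counts (a UMI, unique molecular identifier, marks 1 captured RNA molecule). A nucleus entered either set if it had at least 500 UMIs, at least 300 genes, under 5% mitochondrial UMIs and fewer than 5 UMIs of Pde10a, a phosphodiesterase gene abundant in striatal projection neurons. The endothelial gate then asked for at least 2 UMIs of Flt1, a vascular endothelial growth factor receptor, plus at least 1 UMI of Cldn5 (claudin 5, the main tight junction claudin of brain vessels), Pecam1 (an adhesion molecule of endothelial cell contacts), Tek (the angiopoietin receptor) or Mecom (a transcription factor). The mural gate asked for at least 1 UMI of 2 or more of Pdgfrb (the platelet-derived growth factor receptor of pericytes), Rgs5 (a regulator of G protein signalling), Notch3 (a Notch receptor of vessel walls) and the ATP-sensitive potassium channel genes Abcc9 and Kcnj8, with Flt1 under 2 UMIs. Of 41974 barcodes in the series, 22511 passed the 4 filters. The endothelial gate took 294 nuclei with 920980 UMIs, the mural gate took 225 nuclei with 1009552 UMIs, and 21992 other nuclei passed the filters. Pecam1 matched no feature symbol in the files, so the gate worked through the other 3 genes.

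The study measured single-nucleus RNA in 6 libraries of Long-Evans rats of both sexes, 3 female and 3 male. Each library pooled frozen punches of the shell from 4 animals of 1 sex aged 90 to 100 days, and the labels name no treatment, genotype or transgene for either sex. All p-values below therefore rest on pools, not on animals. In the main sex and share tests they measure the spread between pools. In fits with library as a block they measure how differences within a library vary between pools. Differences of wording in the labels divide the libraries: label set A holds female pool 3 together with male pool 1, and label set B holds the first and second female pools with male pools 2 and 3. No source used here says what this division means. The libraries held 13342828 to 109315226 UMIs. Barcodes above the mitochondrial limit made up 1.55% and 2.28% of the libraries in label set A, against 13.1% to 40.7% in label set B. Most endothelial-gated nuclei came from label set A: 184 from female pool 3, 79 from male pool 1, 14, 10 and 7 from female pool 1 and male pools 2 and 3, and 0 from female pool 2. The mural gate took 22, 7 and 98 nuclei from the 3 female pools in order of their number and 72, 13 and 13 from the male pools. Barcodes found in more than 1 library numbered 213, and 2 gated nuclei carried such a barcode.

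Brain endothelial cells line the vessels and form the blood-brain barrier. Tight junctions seal the path between them, and carriers in their membranes move glucose, amino acids, hormones and iron across. Wnt signalling through beta-catenin induces this barrier programme in development and maintains it, and vascular endothelial growth factor, angiopoietin, Notch and bone morphogenetic protein signals shape the vessels. Mural cells wrap the endothelium: pericytes sit on capillaries inside a shared basement membrane, and smooth muscle cells surround arterioles. Endothelial platelet-derived growth factor B recruits pericytes through Pdgfrb.

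The endothelial gate held nuclei that fitted its name on markers it did not use. A list of 17 other endothelial genes led 208 of the 294 nuclei (70.7%), that is, it had more UMIs than any other cell type list, with a median of 21 UMIs per nucleus. The mural list led 27 nuclei, neuronal genes 26, oligodendrocyte genes 15 and astrocyte genes 8. Cldn5 was present in 218 nuclei (74.1%), Tek in 207 (70.4%) and Mecom in 78 (26.5%), while 64 nuclei entered through Cldn5 alone, 55 through Tek alone and 8 through Mecom alone. Flt1 had a median of 6 UMIs and a range of 2 to 54, and 29 nuclei sat at the lower limit of 2. Those 29 had a median of 14 UMIs of the 17 endothelial genes. Just outside the gate, 43 nuclei with 1 UMI of Flt1 and a second gene had a median of 1, and 81 nuclei with enough Flt1 but no second gene had a median of 7. A further 95 nuclei met the gate's gene conditions but held 5 or more UMIs of Pde10a; they had a median of 12651 UMIs in all, 20 UMIs of endothelial genes and 78 of neuronal genes.

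The mural gate did not hold what its name says. Astrocyte genes led 131 of its 225 nuclei (58.2%) and mural identity genes led 47 (20.9%). Pdgfrb was present in 209 nuclei and Notch3 in 180, and 147 nuclei entered through exactly this pair. Of those 147, astrocyte genes led 83.7% and mural genes led 1. Of the 47 nuclei with 3 or more gate genes, mural genes led 37 (78.7%) and astrocyte genes led 1. Another 889 nuclei outside both gates were picked by 3 astrocyte genes (at least 3 UMIs over Gja1, Aqp4 and Fgfr3, median 3435 UMIs per nucleus). Pdgfrb was detected in 34.5% of them and Notch3 in 10.0%. In 4138 nuclei outside both gates picked by the oligodendrocyte genes Mog and Mag, the shares were 2.13% and 0.701%. Nuclei with both genes and Flt1 under 2 UMIs had been removed from these groups by the mural gate, which lowers the shares. Because astrocyte genes led most of the set, it is called mural-gated below, and its 2 parts are described apart. The plot of list UMIs per nucleus shows both divisions.

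**Figure D1:**
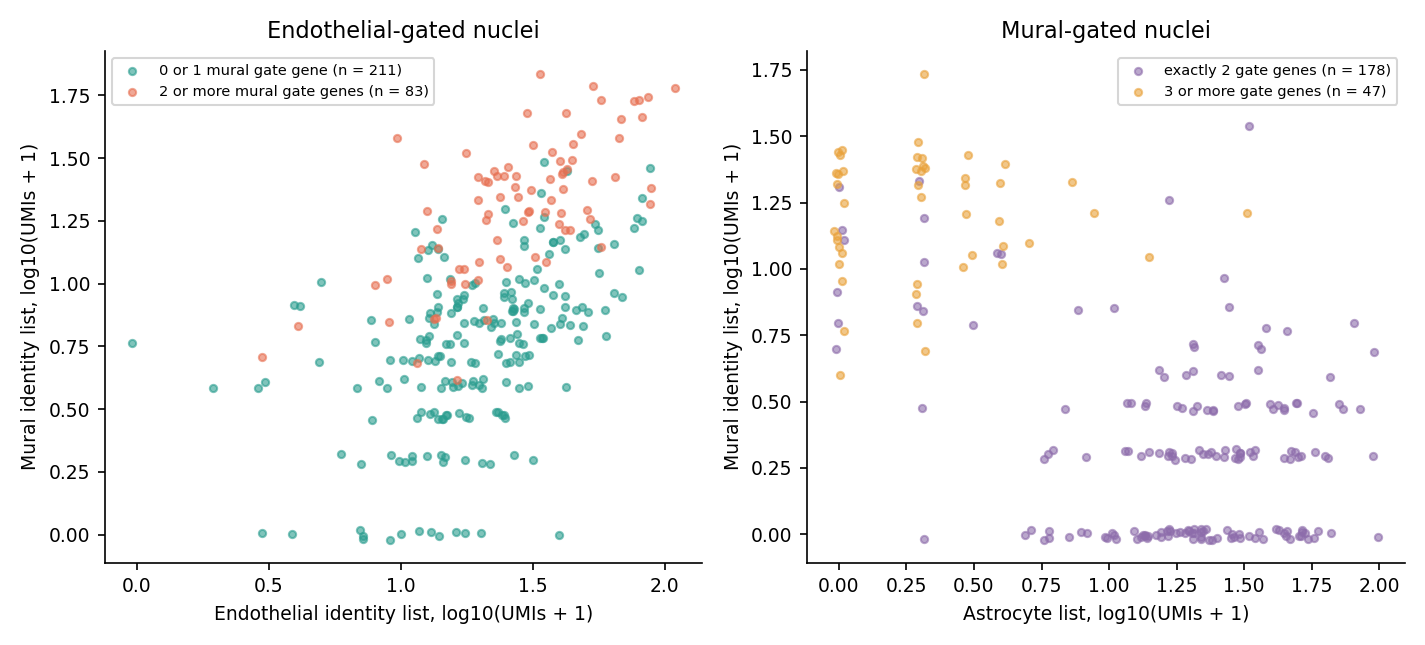
Each point is 1 nucleus, with small jitter, on log10(UMIs + 1) axes: endothelial-gated nuclei by endothelial and mural identity genes (left) and mural-gated nuclei by astrocyte and mural identity genes (right). On the right, the 47 nuclei with 3 or more gate genes lie mostly at high mural and low astrocyte counts, and most of the 178 nuclei with exactly 2 gate genes lie at high astrocyte and low mural counts.

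Most of the tested barrier, junction, Wnt and vessel-identity genes were higher in endothelial-gated nuclei than in the other nuclei of the same libraries, by amounts that varied widely. Cyyr1 reached 2380 CPM (the gene's UMIs in the summed nuclei of a library per 1000000 UMIs of all genes there) in female pool 1, 2170 in female pool 3, 1470 in male pool 1, 3740 in male pool 2 and 1430 in male pool 3. All of these stand far above the other nuclei, where Cyyr1 had 4.21 ± 1.38 CPM (SD, n = 5 libraries). The organic anion carrier Slco1a4 had 1380, 1280, 926, 2790 and 584 CPM in the same order, against 9.81 ± 2.76 in other nuclei, and the glucose transporter Slc2a1 had 758, 704, 609, 712 and 372 CPM against 17.5 ± 2.90. For the 3 genes no library's gated nuclei overlapped the other nuclei. The counts are of 3' ends and are not scaled to gene length, so levels are compared here between nuclei for the same gene.

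In a fit with library as a block (edgeR's quasi-likelihood model on summed UMIs, 5 libraries with at least 5 gated nuclei), 1238 of 12302 genes were called higher (10.1%) and 1271 lower (10.3%) at an adjusted p below 0.05 and an absolute log2 fold change of at least 1. Because the nuclei were chosen on genes of the same cell type, these calls describe the set and test nothing. The filter on low counts also passes genes because they are high in the set, so the counts within lists below hold only those of the listed genes that passed it. The calls numbered 969 without female pool 3, 1488 without male pool 1 and 672 in label set B alone. The median log2 fold change over all tested genes was -0.14. After Nxpe5l1, the genes with the largest folds were Cyyr1 (log2 fold change 8.69 ± 0.47 SE), the aldo-keto reductase gene Akr1c15 (8.11 ± 0.34), the adhesion G protein-coupled receptor Adgrl4 (7.95 ± 0.40), the sialomucin endomucin Emcn (7.72 ± 0.33), the receptor kinase Tie1 (7.62 ± 0.33) and the transcription factor Sox17 (7.56 ± 0.35). Prom1, the osteoprotegerin gene Tnfrsf11b, the chemokine Cxcl12, Serpinb6b, Pmaip1, Adgrf5, Nostrin (a partner of nitric oxide synthase) and Cd34 followed, with log2 fold changes of 6.82 to 7.47. Each of these 15 genes was higher in 5 of 5 libraries. Nxpe5l1 (10.20 ± 0.42) rested on 45 UMIs, with 25.1 to 534 CPM across libraries.

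**Figure D2:**
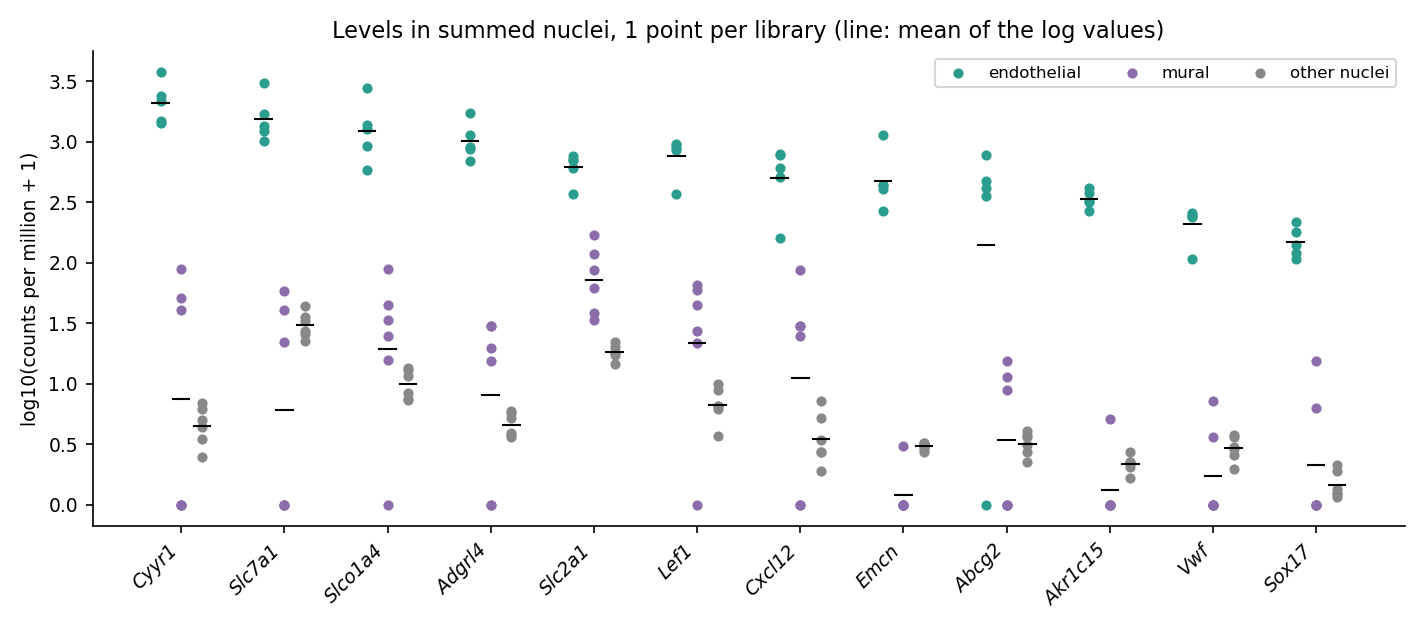
Levels of 12 genes as log10(CPM + 1) in the summed endothelial-gated, mural-gated and other nuclei, 1 point per library, with a line at the mean of the log values. The endothelial-gated points lie above the other nuclei for each gene in each library, except Abcg2 at 0 in male pool 3.

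Of 20 listed barrier carriers 17 were tested, and 16 were called higher, with a list median of 2.87. Besides Slco1a4 (log2 fold change 6.82 ± 0.40) and Slc2a1 (4.98 ± 0.33), these were the organic anion transporter Slc22a8 (6.56 ± 0.33), the cationic amino acid carrier Slc7a1 (5.33 ± 0.38), the thyroxine carrier Slco1c1 (4.84 ± 0.35), the large neutral amino acid carrier Slc7a5 (4.71 ± 0.28) and the transferrin receptor Tfrc (3.61 ± 0.32). Mfsd2a, the lysolipid carrier of barrier capillaries, had a smaller difference of 1.94 ± 0.35, with 27.1 to 178 CPM in the gated nuclei against 8.15 to 30.0 in the others, so that the 2 ranges overlapped. Slc7a1 had 1680, 1340, 1220, 3030 and 1010 CPM in female pools 1 and 3 and male pools 1 to 3, all above the other nuclei (21.7 to 42.9). Of 3 tested genes of the ABC transporter list, Abcc4 was called higher (3.26 ± 0.28), and Abcc1 (-0.47 ± 0.30) and Abca1 (-0.19 ± 0.30) were not called. Abcg2, the breast cancer resistance protein, did not pass the filter on low counts. Male pool 3 had 0 UMIs of it among 18823, which allows up to 159 CPM. In the other 4 libraries it had 352, 470, 411 and 771 CPM, against 1.24 to 3.09 in other nuclei.

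Single nuclei showed the same division. Cyyr1 had a UMI in 91.2% of the endothelial-gated nuclei (median 2128 UMIs) and in 0.556% of the oligodendrocyte-picked nuclei (median 2188 UMIs), which should lack it. Slco1a4 was detected in 83.0% and 2.15%, Lef1 in 78.2% and 1.26%, Adgrl4 in 77.2% and 0.677%, Slc2a1 in 71.1% and 7.66%, Abcg2 in 53.4% and 0.459%, and Mfsd2a in 13.3% and 6.69%. Mfsd2a had the smallest gap between the 2 groups of nuclei.

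Junction genes were tested for 11 of 14 listed, and 8 were called higher. The endothelial adhesion molecule Esam (6.35 ± 0.31), vascular endothelial cadherin Cdh5 (5.49 ± 0.33), paracingulin Cgnl1 (5.09 ± 0.31) and occludin Ocln (4.62 ± 0.31) had large log2 fold changes. The scaffold gene Tjp1, which many cell types use, differed less (1.46 ± 0.29), with 400 ± 110 CPM (SD, n = 5) against 120 ± 7.99. In the 3 label set B libraries alone it kept its direction (1.19) and was not called.

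Of the Wnt genes tied to the barrier, 14 of 18 listed were tested and 10 were called higher, while 4 were not called, 1 of them with a fitted value below 0. The beta-catenin partner Lef1 had 948, 938, 861, 890 and 372 CPM in female pools 1 and 3 and male pools 1 to 3, against 6.64 ± 1.65 in other nuclei (log2 fold change 6.72 ± 0.38). Lef1 was lowest in male pool 3, whose 7 gated nuclei were the fewest of the 5. The Wnt target and inhibitor Apcdd1 (6.14 ± 0.32), the receptor Fzd6 (5.15 ± 0.32) and the feedback target Axin2 (2.15 ± 0.33) were higher as well. Sox17 is on this list and among the endothelial transcription factors, where 8 of 9 tested genes were called higher. Among these were the ETS family factors Erg (6.22 ± 0.30), Fli1 (4.73 ± 0.29) and Ets1 (3.99 ± 0.28), and the hypoxia-inducible factor Epas1 (4.48 ± 0.33).

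Since several factors on that list belong to the ETS family, whose core DNA motif is GGAA, the promoters of the genes with the largest folds were read from RefSeq (GRCr8 table, the 250 bases before each gene's start, 27457 promoters). The 3 below are examples chosen after their matches were seen: Emcn and Tie1 are among the 15 genes with the largest endothelial folds but not at their head, and Atp13a5 had the largest mural fold. Capitals mark GGAA, or TTCC where the motif lies on the other strand.
Emcn, chr2:228564289-228564538, plus strand: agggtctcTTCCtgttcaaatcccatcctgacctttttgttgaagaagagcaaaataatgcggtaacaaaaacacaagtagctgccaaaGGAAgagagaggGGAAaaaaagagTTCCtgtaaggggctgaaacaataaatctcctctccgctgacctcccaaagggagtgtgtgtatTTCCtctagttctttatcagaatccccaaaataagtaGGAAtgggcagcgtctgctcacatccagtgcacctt
Tie1, chr5:137304982-137305231, minus strand: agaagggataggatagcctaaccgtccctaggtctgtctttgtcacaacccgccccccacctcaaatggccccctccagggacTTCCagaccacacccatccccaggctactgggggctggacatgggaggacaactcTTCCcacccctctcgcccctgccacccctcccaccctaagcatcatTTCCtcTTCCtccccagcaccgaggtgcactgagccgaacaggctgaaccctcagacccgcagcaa
Atp13a5, chr11:84880980-84881229, plus strand: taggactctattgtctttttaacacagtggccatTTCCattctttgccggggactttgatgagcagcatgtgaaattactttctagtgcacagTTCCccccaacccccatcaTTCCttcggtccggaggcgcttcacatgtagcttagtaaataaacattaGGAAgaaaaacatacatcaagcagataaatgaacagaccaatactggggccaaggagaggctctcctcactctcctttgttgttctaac
Emcn holds 6 matches and Tie1 and Atp13a5 hold 4 each. All 12 matched promoters of the 15 leading endothelial genes held at least 1. Their mean was 3.50 and their median 3, against 2.95 and 3 over all promoters. Akr1c15, whose fold was larger than those of Emcn and Tie1, held 1. The motif is short and common, however: it was in 93.2% of all promoters (median 3 matches), in 92.4% of the tested genes' promoters, in 92.8% of the 932 matched promoters of genes called higher and in 89.4% of the 865 of genes called lower. CTTTGA, a core of the motif bound by the TCF and LEF factors, was in 13.8% of all promoters, in 10.4% of those called higher and in 10.0% of the tested genes' promoters. Both motifs were searched on both strands, with overlaps counted, and the shares of the called-higher and tested genes lay close together.

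Growth factor genes were mixed in direction. Of 10 tested genes of the vascular endothelial growth factor and angiopoietin list, 5 were called higher and 1 lower. The receptor Kdr (6.42 ± 0.33), Tie1 and the phosphatase Ptprb (4.84 ± 0.31) were among the higher, and the co-receptor Nrp1 had a log2 fold change of 1.20 ± 0.28. The co-receptor Nrp2 was lower (-1.40 ± 0.33; 70.8 ± 59.9 against 164 ± 15.8 CPM), and the ligand Vegfa was not called (-0.77 ± 0.32). The pericyte-recruiting ligand Pdgfb had 108, 134, 198, 237 and 106 CPM in female pools 1 and 3 and male pools 1 to 3, all above the 4.35 to 6.37 of other nuclei (log2 fold change 4.71 ± 0.30), and the ligand Pdgfd was also higher (4.22 ± 0.31). In the Notch list 7 of 10 tested genes were called higher, among them the receptors Notch4 (4.23 ± 0.33) and Notch1 (2.76 ± 0.27) and the ligand Jag1 (3.11 ± 0.34). In the list of transforming growth factor beta and bone morphogenetic protein genes 8 of 13 were, among them the co-receptor Eng (6.54 ± 0.32), the target Id1 (6.43 ± 0.30) and the receptor Acvrl1 (5.34 ± 0.32).

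Matrix and caveola genes formed the next groups. Of 16 tested basement membrane genes 12 were called higher, with a median of 3.21: Fn1 (fibronectin, 6.57 ± 0.30), the laminin chains Lamb2 (5.32 ± 0.30) and Lama4 (3.26 ± 0.28), and the collagen IV chains Col4a3 (4.80 ± 0.28) and Col4a1 (3.14 ± 0.27). Of 9 tested caveola and transcytosis genes 8 were called, led by the caveola coat gene Cavin1 (5.97 ± 0.32), with caveolin Cav1 at 3.73 ± 0.33 and the insulin receptor Insr at 1.49 ± 0.28. Nitric oxide synthase Nos3 had a log2 fold change of 5.02 ± 0.31 and was at 0 in 1 of 5 libraries. The adrenergic receptor Adra1a was lower (-1.33 ± 0.34). Without female pool 3, Insr, Adra1a, Tjp1, Mfsd2a, Nrp1 and Nrp2 kept their direction and were not called, and Nrp1 was not called without male pool 1 either. In the neuron list 0 of 9 tested genes were higher and 5 were lower, in the astrocyte list 0 were higher and 1 of 9 lower, and in the microglia list 0 of 7 were called. Lists of other vessel cells did have higher genes: 5 of 7 tested mural identity genes (median 2.01), 5 of 8 smooth muscle genes (1.87) and 3 of 6 perivascular fibroblast genes (0.57), while a further fibroblast gene, Cemip, was lower (-1.80 ± 0.42). The higher fibroblast genes were Slc6a13 (4.74 ± 0.32), Fbln1 (1.30 ± 0.41) and Aldh1a2 (1.48 ± 0.49), and the latter 2 had 0 UMIs in the gated nuclei of 3 of 5 libraries. The fibroblast list stood at 290 CPM in the gated nuclei against 155 in other nuclei, and its part in the matrix genes was not tested. Of the immediate early genes 7 of 8 tested were higher (median 2.02), and of the sex steroid receptor genes 4 of 4 were lower (median -1.40). In the gated nuclei of female pool 1 and male pools 2 and 3, 3 counts alone give 81.3, 178 and 159 CPM. That limits what those libraries add to the 2 counts. Neuronal genes still made up 2295 CPM of the endothelial-gated sums, and their part in the results was not tested.

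**Figure D3:**
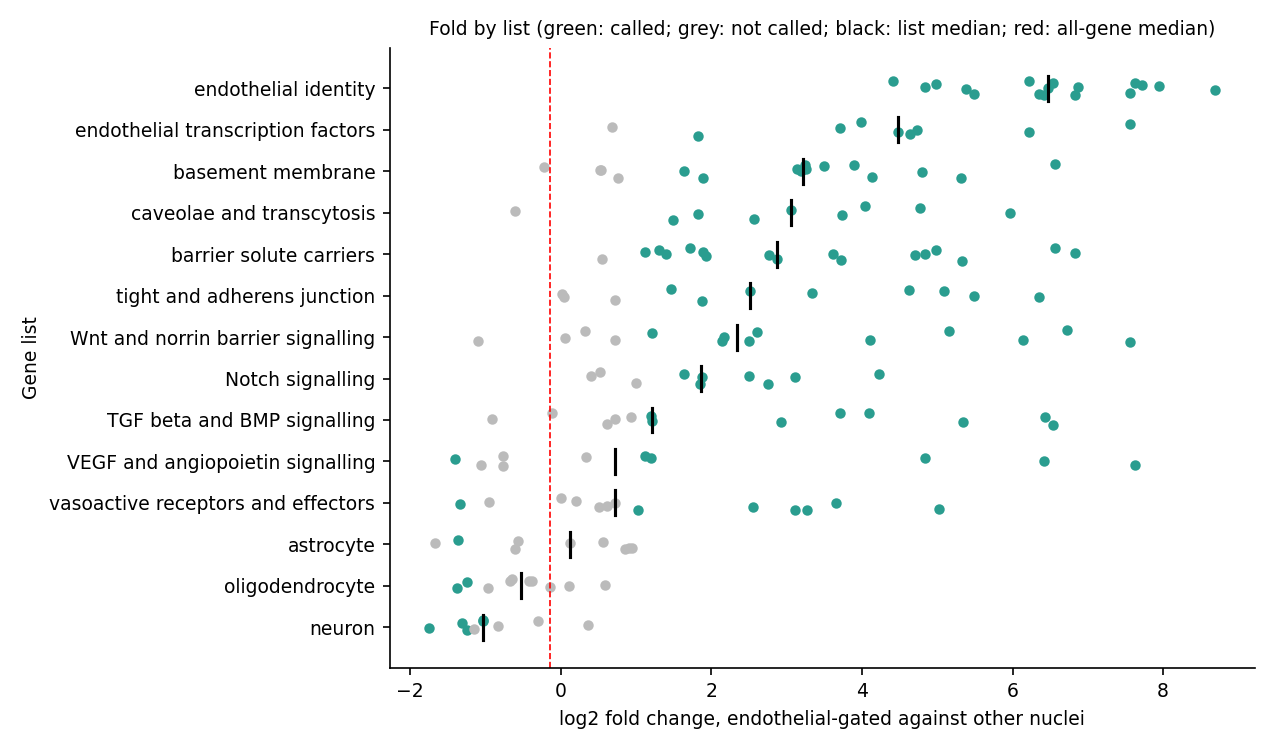
Log2 fold change of each tested gene of 14 lists, endothelial-gated against other nuclei, with green points for called genes, grey for genes not called, a black bar at the list median and a red dashed line at the median of all tested genes (-0.14). The medians run from 6.47 for endothelial identity to -1.03 for neuronal genes.

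Among the 294 endothelial-gated nuclei, 83 also carried 2 or more of the mural gate genes. These 83 nuclei came from female pool 3 (48), male pool 1 (31), female pool 1 (3) and male pool 2 (1), with 0 in male pool 3. They had a median of 3074 UMIs against 1767 in the other 211. The highest doublet scores, up to an assumed rate per library, took in 7.23% of them against 9.48%. That rate ran from 2.30% to 13.2%, the latter in female pool 3, which gave 136 of the 211. These shares therefore do not compare the 2 parts, and whether the 83 nuclei are doublets was not tested. Their endothelial genes stood at like levels in both parts: summed over nuclei, Cyyr1 was at 1694 CPM with and 2025 without the mural genes, Slco1a4 at 1184 and 1137, and Emcn at 433 and 450. Mural genes that the gate did not use differed: Atp13a5, a P-type ATPase of brain pericytes, was at 1111 against 64.3 CPM, vitronectin Vtn at 357 against 13.2, the NG2 proteoglycan Cspg4 at 166 against 33.0 and the proline transporter Slc6a20 at 678 against 9.89. Smooth muscle genes did too: Acta2 was at 213 against 1.65 CPM, Tagln at 328 against 6.59 and Myh11 at 331 against 13.2. Few nuclei carried these sums: Acta2 had a UMI in 12 of the 83 nuclei (14.5%), and the smooth muscle list had a median of 1 UMI per nucleus beside a mean of 6.01, with 2 or more of its genes in 29 nuclei. Ebf1, a transcription factor that mural cells carry, was at 3502 CPM in the 83 nuclei and still at 1897 in the 211, where 90.5% of nuclei had a UMI, against 3.75% of oligodendrocyte-picked nuclei.

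Several folds of the endothelial gate depended on these 83 nuclei. With them, Atp13a5 had a log2 fold change of 6.59 ± 0.31 over other nuclei and Vtn 5.37 ± 0.32; without them the values were 4.09 and 2.26. The endothelin receptor Ednra went from 3.27 ± 0.33 to -0.24, the laminin chain Lama2 from 1.89 ± 0.27 to -0.63 and the basement membrane collagen Col18a1 from 3.49 ± 0.27 to 0.93, and none of the 3 was called without them. The barrier and identity genes kept their size: without the 83 nuclei Cyyr1 was at 8.69, Slco1a4 at 6.78, Lef1 at 6.67 and Slc2a1 at 4.95. The number of genes called fell from 2509 to 1489 of 12230.

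The 2 parts of the mural gate differed in the same genes and in the opposite way for glial ones. In the 47 nuclei with 3 or more gate genes, Atp13a5 stood at 1695 CPM, Ebf1 at 2873, Slc6a20 at 987, Col18a1 at 931, Lama2 at 780, the cyclase subunit Gucy1a2 at 1934 and Vtn at 286. In the 147 nuclei with Pdgfrb and Notch3 alone the same genes were at 2.70, 60.7, 5.39, 9.44, 125, 167 and 5.39 CPM. The glutamate transporter genes ran the other way, with Slc1a2 at 1305 and Slc1a3 at 1835 CPM in the 147 nuclei against 111 and 318 in the 47, and the bicarbonate transporter Slc4a4 at 1751 against 207. Fgfr3 was at 48.5 CPM in the 147 nuclei and had 0 UMIs in the 47. The 17 endothelial identity genes together stood at 851 CPM in the 47 nuclei, of which 74.5% had a UMI of them, and at 109 CPM in the 147, against 94.9 in other nuclei and 8332 in the endothelial gate. Cxcl12 was at 191 CPM in the 47 nuclei, Lef1 at 135, Cyyr1 at 127 and Emcn at 7.96, against 3.96, 7.13, 4.87 and 1.98 in other nuclei. The part of these endothelial transcripts in the levels of the 47 nuclei was not tested. Contractile genes in the 47 nuclei were below those of the 83 double-positive nuclei, with Acta2 at 15.9 CPM and Tagln at 31.8. The 47 nuclei were 24 of female pool 3, 14 of male pool 1 and 9 of the remaining libraries, so most of them come from 2 libraries and these sums carry no error between libraries.

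**Figure D4:**
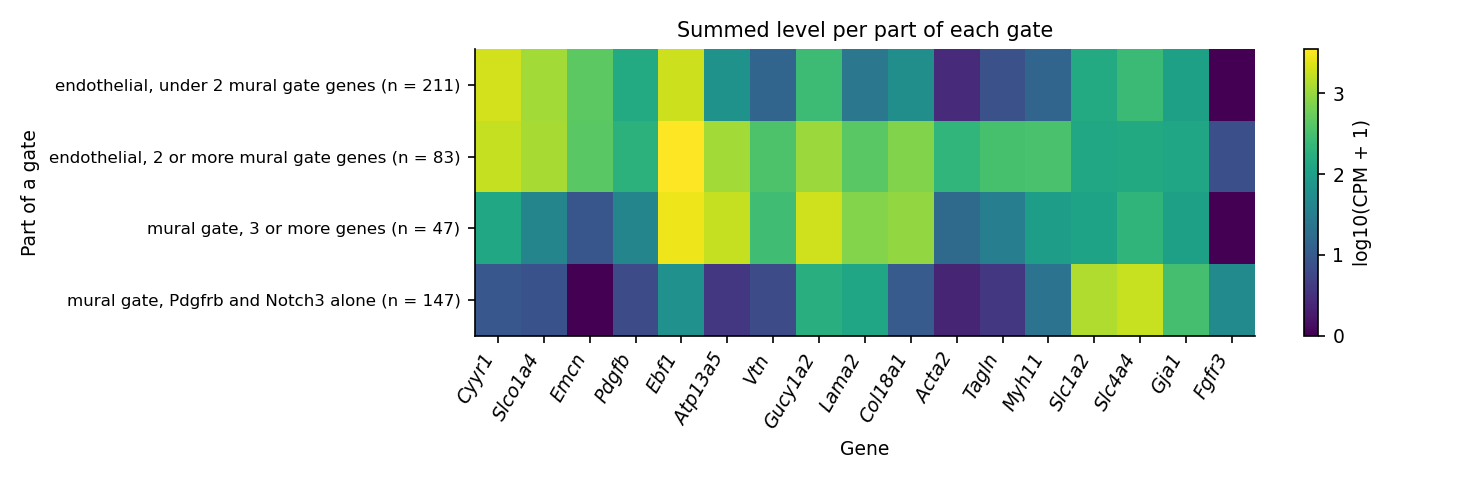
Summed levels as log10(CPM + 1) of 17 genes (columns) in the 2 parts of each gate (rows). Mural and matrix genes such as Atp13a5 and Col18a1 are high in the 83 endothelial-gated nuclei with mural genes and in the 47 mural-gated nuclei with 3 or more genes, and Slc1a2 and Slc4a4 are highest in the 147 nuclei with Pdgfrb and Notch3 alone.

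Against other nuclei, the whole mural-gated set (6 libraries) had 788 of 11667 genes called higher (6.75%) and 1165 lower (9.99%), again as a description, with a median of -0.20 over all tested genes. Atp13a5 had the largest fold (log2 fold change 5.79 ± 0.27). Its levels were 173, 0 and 305 CPM in the female pools by number and 214, 618 and 87.9 CPM in the male pools, against 2.99 to 6.22 in other nuclei. It was higher in 5 of 6 libraries; female pool 2, whose 7 gated nuclei all carried Pdgfrb and Notch3 alone, had 0 UMIs. Slc6a20 (4.09 ± 0.26), the matrix protein gene Egflam (3.98 ± 0.26) and the integrin Itga1 (3.61 ± 0.33) followed. All 9 tested astrocyte genes were called higher as well, with a median of 2.32, among them Slc1a2 (2.65 ± 0.26), Aqp4 (2.51 ± 0.24), Slc1a3 (2.33 ± 0.26), Gja1 (2.14 ± 0.24) and Slc4a4 (1.82 ± 0.25). Slc1a2 had 997, 1410 and 858 CPM in the female pools and 1180, 1660 and 1320 CPM in the male pools, above the 93.7 to 252 of other nuclei in each library. With 3 or more gate genes, a fit that only female pools 1 and 3 and male pool 1 entered, Slc1a2, Aqp4, Slc1a3 and Slc4a4 had values of -1.11, -0.21, -0.56 and -1.53, none called, while Atp13a5 was at 8.18, Slc6a20 at 6.36 and Egflam at 6.27, and 233 of 12757 genes were called in all.

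Set directly against each other in 5 libraries, 298 of 1050 genes were called (28.4%), 147 of them higher in the endothelial-gated nuclei and 151 higher in the mural-gated nuclei. On the endothelial side were Emcn (log2 fold change 8.19 ± 0.51), Akr1c15 (7.15 ± 0.49), Cyyr1 (5.81 ± 0.55), Slc7a1 (5.71 ± 0.46) and Lef1 (4.89 ± 0.39). On the mural side the largest were Trpm3 (-3.36 ± 0.50), Slc4a4 (-3.33 ± 0.53), Slc1a2 (-3.32 ± 0.45), Rorb (-3.21 ± 0.48) and Slc1a3 (-3.04 ± 0.52), of which Slc4a4, Slc1a2 and Slc1a3 are on the astrocyte list. Atp13a5 was not called between the 2 gates (0.81 ± 0.30), and Col18a1 was higher on the endothelial side (1.20 ± 0.36). Between the 211 endothelial-gated nuclei with fewer than 2 mural genes and the 47 mural-gated nuclei with 3 or more, Atp13a5 was at -5.91 and Col18a1 at -4.25, both higher on the mural side. The number of genes that passed the filter on low counts changed with the libraries: 164 of 515 tested genes were called without male pool 1, 228 of 523 without female pool 3, 997 of 4995 without female pool 1, and 1014 of 5186 and 986 of 5099 without male pools 2 and 3.

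Markers of vessel segments did not divide the 294 nuclei cleanly. At least 2 genes of the capillary list were found in 243 nuclei (82.7%), of the arterial list in 147 (50.0%) and of the venous list in 119 (40.5%). Only capillary genes reached this level in 72 nuclei (24.5%), only arterial genes in 12 and only venous genes in 11. All 3 lists reached it in 62 (21.1%) and no list in 23. Cxcl12 is on both the arterial and the capillary list and was detected in 187 nuclei (63.6%), so part of this overlap is built in. No such list counts are given here for other nuclei. Von Willebrand factor Vwf, higher in veins and large vessels, was detected in 128 nuclei, with a log2 fold change of 6.50 ± 0.31 over other nuclei. The capillary gene Mfsd2a was detected in 39 nuclei, of which 20 (51.3%) also had Vwf, against 43.5% of all 294. Among the genes compared above, Mfsd2a had the smallest gap over oligodendrocyte-picked nuclei, which limits what its overlap with Vwf can show. The arterial kinase Bmx was detected in 3 nuclei (1.02%) and the venular carrier Slc38a5 in 9 (3.06%), against 0.580% and 0.121% of oligodendrocyte-picked nuclei. So few nuclei carried them that these 2 markers say little at this depth. The interleukin 1 receptor Il1r1, on the venous list, had 6.36 ± 0.32, and ranged from 78.5 to 797 CPM across the 5 libraries. The venous factor Nr2f2 was detected in 36.1% of the 83 nuclei with mural genes and in 3.79% of the other 211, and in 25.5% of the 47 mural-gated nuclei with 3 or more gate genes and 0.680% of the 147 with Pdgfrb and Notch3 alone.

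The share of endothelial-gated nuclei overlapped between the sexes and did not overlap between the label sets. It was 0.660% of the nuclei passing the filters in female pool 1 (95% Wilson interval 0.394 to 1.11), 0 of 1515 in female pool 2 (Wilson upper limit 0.253%, and 0.198% by the limit of 3 counts), 1.89% in female pool 3 (1.63 to 2.18), 1.53% in male pool 1 (1.23 to 1.90), 0.554% in male pool 2 (0.301 to 1.02) and 0.326% in male pool 3 (0.158 to 0.671). Both label set A libraries lie above the 4 of label set B, which reach 0.660% (p = 0.133, exact permutation test, two-sided, the smallest p that 2 against 4 libraries allow). These intervals cover counting error only. Females averaged 0.849% ± 0.957 (SD, n = 3) and males 0.803% ± 0.639; the difference of 0.0457 percentage points had p = 0.900 (exact permutation test, two-sided, whose smallest possible p is 0.1). Within label set A the female library was higher by 0.357 points, and within label set B the females were lower by 0.110 (-0.110 points). Without female pool 3 the difference was -0.473, and without female pool 2 it was 0.470. The median depth of the other nuclei overlapped between the label sets, with 2774 and 3161 UMIs per nucleus in A and 2352 to 3084 in B. Their median mitochondrial share did not, with 0.179% and 0.484% in A and 1.60% to 3.32% in B, and its part in the shares cannot be told apart from that of the label set.

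**Figure D5:**
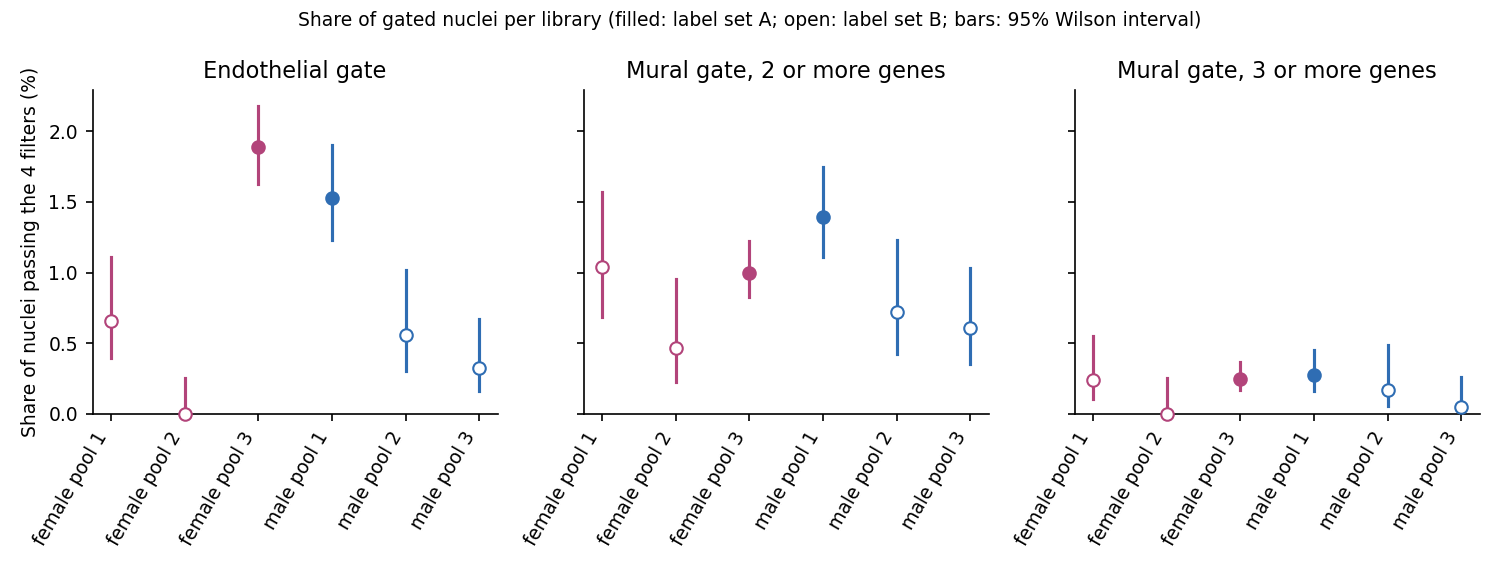
Share of nuclei passing the 4 filters that fell in the endothelial gate, the mural gate and the mural gate with 3 or more genes, per library, with 95% Wilson intervals; filled points are label set A and open points label set B. Endothelial shares are 1.53% and 1.89% in label set A and 0 to 0.660% in label set B.

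The mural-gated share, by pool number, was 1.04%, 0.462% and 1.0% for the females, while the males had 1.39%, 0.720% and 0.605%. Female and male libraries overlapped, with means of 0.835% ± 0.323 and 0.906% ± 0.426 (SD, n = 3 each) and a difference of -0.0717 points (p = 0.900, exact permutation test, two-sided). The difference was -0.389 within label set A and 0.0872 within label set B. It was 0.172 without male pool 1 and 0.115 without female pool 2. Thinning each nucleus to 1000 UMIs left out 1679 shallower nuclei (30 endothelial-gated and 12 mural-gated). The gates were then applied anew, and 164 nuclei met the endothelial gate and 65 the mural gate. Thinning lowers Flt1, so the 65 can include nuclei that were endothelial-gated before, and how many was not counted.

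Between females and males, endothelial-gated nuclei showed 0 called genes of 754 (0%), with 2 female and 3 male libraries. The test was edgeR's quasi-likelihood test with Benjamini-Hochberg adjustment and the label set as a term. Of the 4 listed Y-linked genes found in the files, 0 passed the filter on low counts, so this result does not cover them. Only Sparcl1, a matrix glycoprotein gene, had an unadjusted p below 0.05. It had 54.2 and 125 CPM in female pools 1 and 3 and 352, 237 and 319 in male pools 1 to 3. The value of 54.2 lies below the 81.3 CPM that 3 counts give in female pool 1. The log2 fold change of -1.82 ± 0.63 (female minus male) had an edgeR adjusted p of 0.997. DESeq2 also called 0 genes, with 4 at an unadjusted p below 0.05. The next genes by p included Osbpl8 (1.25 ± 0.62) and the phospholipase gene Plcb1 (1.40 ± 0.70), both with an edgeR adjusted p of 0.997. Kdm6a, a histone demethylase gene that escapes X inactivation, had 352 and 399 CPM in the females and 276, 237 and 53.1 in the males (0.74 ± 0.57), and the immediate early gene Egr1 had 352 and 138 CPM in the females and 298, 59.3 and 0 in the males. Female pool 2 had no endothelial-gated nucleus and is not in this fit. Without female pool 3 the fit called 2 genes of 814 tested. Without male pool 2 or male pool 3 it called 6, of 5539 and 5397 tested genes, about 7 times as many as in the fit of 5 libraries. Leaving out female pool 3 leaves 1 female library, which is then assumed to vary like the males.

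In mural-gated nuclei 2 of 1060 genes (0.189%) were called by sex in edgeR's quasi-likelihood test with Benjamini-Hochberg adjustment over 3 female and 3 male libraries. LOC680227 had 4437, 2093 and 317 CPM in the female pools by number and 0 in every male pool (adjusted p = 3.39e-06). Against the limit that 3 counts over the male group allow, it was at least 130-fold higher in females; the bound was 56.3-fold without female pool 1, 586-fold without female pool 3 and 19-fold without male pool 1. AABR07039356.2 had 304, 226 and 382 CPM in the females and 5.28, 0 and 0 in the males (adjusted p = 7.30e-06). It had 208 UMIs in females and 2 in males, a ratio of 81.5 with an exact counting interval of 22.3 to 678. Both male UMIs were in male pool 1, without which the ratio was at least 7.95. Both had like values elsewhere: in other nuclei LOC680227 had 3810, 1440 and 291 CPM in females and 2.02 to 3.97 in males, and AABR07039356.2 had 241, 424 and 356 against 0.466 to 2.40. The endothelial-gated nuclei also had LOC680227 in females only, at 3850 and 219 CPM, but the gene did not pass the filter on low counts there. In the same nuclei AABR07039356.2 had 244 and 353 CPM in female pools 1 and 3 (178 UMIs). The male pools had 8.12, 0 and 0 CPM (3 UMIs). Without male pool 1 AABR07039356.2 was not called (edgeR adjusted p = 0.184), and with no label set term LOC680227 was not (edgeR adjusted p = 0.166). Without female pool 1 the fit called 1 gene. With the replicate number as a block neither was called (edgeR adjusted p = 0.0835 for LOC680227 and 0.221 for AABR07039356.2).

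The next genes by p in mural-gated nuclei did not pass the adjusted threshold. Adgrv1, an adhesion G protein-coupled receptor gene, had 86.7, 56.6 and 75.2 CPM in females and 203, 228 and 264 in males. The value of 56.6 lies below the 170 CPM that 3 counts give in female pool 2, and the log2 fold change of -1.47 ± 0.36 had an edgeR adjusted p of 0.299. The polyamine enzyme gene Sat1 (-1.10 ± 0.30, edgeR adjusted p = 0.594) overlapped between the sexes, and Kdm6a (0.90 ± 0.42) did too. The labels were checked on the 4 listed Y-linked genes found in the files. Neither main sex fit tested these 4 genes, since 0 of them passed its filter on low counts. Ddx3, Eif2s3y and Kdm5d were at 29.3 CPM or more in both gated sets of each male library. That lowest value was 1 UMI, of Ddx3 and of Eif2s3y in the mural-gated nuclei of male pool 3. In the female libraries they were at 0 to 27.1 CPM, where the highest was 1 UMI of Kdm5d in female pool 1. The gated sets alone thus separate the sexes by single UMIs at these limits. In other nuclei these genes had 63.5 CPM or more in males and 2.95 or less in females. Usp9y did not follow the labels: it had 0 UMIs in the endothelial-gated nuclei of every male library and in the mural-gated nuclei of 2 of 3, and 14.5 CPM (1 UMI) in the mural-gated nuclei of female pool 1. In other nuclei it had up to 6.80 CPM in females and as little as 3.78 in males, so the sexes overlapped.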

How the data were processed

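The authors deposited UMI counts, whole and not normalized, for each nucleus barcode. Per the file headers they were made with Cell Ranger 4.0.0, and per the submitters' processing notes on build rn6; no source used here gives the annotation release. All 6 matrices list 32883 features, and the libraries held 13342828 to 109315226 counts.

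The members and lists were chosen with earlier results of these data known. Nuclei were filtered and gated as the results describe, counts were summed per library and set, and sets were compared with edgeR 4.0.16 (R 4.3.3) quasi-likelihood fits with library as a block, in libraries with at least 5 gated nuclei. Sex fits had the label set as a term. Genes of the gates were left out of the calls. Genes named for the sets came from preset lists or from the 15 with the largest folds. Those 15 had at least 20 UMIs and left out features named by a clone or LOC number alone. For sex, all called genes were named, with some from preset lists and from the 5 lowest p-values each way. DESeq2 1.42.0, other scaling, filters, thinning to 1000 UMIs and stricter gates were alternatives, and shares were tested with scipy 1.17.1 by exact permutation. Scrublet as held in scanpy 1.11.5 scored doublets; since the automatic thresholds ranged from 0.0114% to 39.2% of nuclei, the alternative without doublets removed the highest scores up to an assumed rate of 0.8% per 1000 nuclei. On simulated counts the endothelial sex fit recovered 80.4% of genes changed by 2 on the log2 scale and 100% of those changed by 4 (1365 genes), and the mural sex fit 97.5% and 100% (1245 genes). Recovery was counted among changed genes that passed the filter on low counts. The simulation gave all genes the same assumed spread and all libraries the same profile, with no label set difference. These shares are therefore not the sensitivity of the real fits, which tested 754 and 1060 genes. Listed symbols with no match in the files were not analysed here.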

Additional observations from a re-analysis of the deposited data

How the results depend on the processing

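The sex difference in shares had no stable direction. Leaving out 1 library at a time moved the endothelial difference between -0.473 and 0.470 percentage points and the mural one between -0.222 and 0.172. Stricter gates gave -0.0280 for the endothelial share, and a limit of 1% mitochondrial UMIs gave 0.143 for the mural share. Under that limit female pool 2 kept 9 nuclei. The mural gate then held 0 nuclei there, 1 in male pool 2 and 0 in male pool 3, so the value of 0.143 says little. The endothelial sex fit called 5 genes of 15346 with no filter on low counts and 0 to 6 with 1 library left out. The mural sex fit called 6 with no filter, 1 with no label set term and 1 to 3 with 1 library left out. LOC680227 and AABR07039356.2 kept their direction in every alternative that tested them.

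With the replicate number as a block in place of the label set, the mural sex fit called 0 genes, and the endothelial one called 0 as in the main fit. Deviations from the sex means of same-numbered female and male libraries correlated at -0.774, 0.256 and -0.638 for numbers 1 to 3 over 16277 genes. Female pool 3 and male pool 1, the libraries of label set A, correlated at 0.851. The label sets cross the numbers and were not removed here, so these values cannot show whether same-numbered libraries are paired. In the share tests the block gave the same differences with p = 1.0 (exact test over sign flips, smallest p 0.25).

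The count of genes called, endothelial-gated against other nuclei, was 1034 after thinning, 672 in label set B alone, 1489 without the nuclei with 2 or more mural genes (chosen after seeing the data), and 969 to 2453 with 1 library left out. For the mural gate it was 1174 of 8930 after thinning and, in 3 libraries in place of 6, 966 for marker-supported nuclei and 233 with 3 or more gate genes (chosen after seeing the data). Between the gates, against 298 of 1050 tested, it was 1361 of 16766 with no filter, 81 of 125 after thinning, 1363 of 7830 in label set A alone, 173 of 587 for marker-supported nuclei, 107 of 1281 and 1704 of 5494 for the 2 pairings of the gates' parts (chosen after seeing the data), and 164 of 515 to 1014 of 5186 with 1 library left out. The genes tested changed with these counts, so they do not rank the settings.

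Among single genes named, signs changed as follows. Without the 83 double-positive nuclei Lama2 was at -0.63 and Ednra at -0.24. Of the mural gate's folds, with 3 or more gate genes Slc1a3 was at -0.56, Slc1a2 at -1.11, Slc4a4 at -1.53 and Aqp4 at -0.21, and in marker-supported nuclei they were at -0.69, -0.43, -1.47 and -0.29. In nuclei with Pdgfrb and Notch3 alone Slc6a20 was at -0.71, Ebf1 at -0.96 and Col18a1 at -1.67. Between the gates, endothelial-gated nuclei with fewer than 2 mural genes against mural-gated nuclei with 3 or more gave Slc4a4 0.40, Atp13a5 -5.91 and Col18a1 -4.25, and marker-supported nuclei gave Atp13a5 -1.89 and Col18a1 -1.68. Apart from the composition of the sets, which these alternatives change by construction, the cause was not tested. Of 1134 values of the 68 genes named for the endothelial gate against other nuclei, 1103 kept direction and side of the threshold and 2 changed sign; of 193 values of 11 genes for the mural gate, 179 did and 11 changed sign; of 170 values of 12 genes between the gates, 159 did and 5 changed sign. The sex fits under 1% mitochondrial UMIs and the mural sex fit in marker-supported nuclei were not run, and female pool 2 could not be left out of fits it was not in. Endothelial-gated sums of 16853 to 36923 UMIs in 3 libraries limit what label set B alone can show.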
